A study of Mus musculus with 12 samples.

Results

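The 8 enzymes studied here act on the outer face of the cell, and their genes were followed in fibroblasts of newborn mouse skin: CD39 (gene Entpd1), CD73 (Nt5e), CD26 (Dpp4), FAP (Fap), neprilysin or CD10 (Mme), aminopeptidase N or CD13 (Anpep), Enpp1 and autotaxin (Enpp2). A gene entered the account through a probe set, the group of array probes that reports on it, whose only symbol was that of the gene. Of the 8 genes, 6 had such a probe set, 1 each, among 22180 genes on the arrays, and Enpp1 and Enpp2 were not analysed here. CD26 was itself a sorting marker, so Dpp4 serves as a check of the sort and 5 genes were left to test in every comparison.

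Cells use these enzymes to edit signals in the fluid around them. CD39 removes phosphates from extracellular ATP and ADP to leave AMP, CD73 turns AMP into adenosine, and adenosine acts on its own receptors and restrains many immune cells. CD26 and FAP are related serine peptidases that clip short peptides next to proline, while CD10 and CD13 are zinc peptidases that break down peptide hormones and growth signals. Several of them are widely used as surface antigens of fibroblasts and mesenchymal progenitors.

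The fibroblasts came from dorsal skin of wild-type mice, by their labels, 2 days after birth, and their RNA was hybridised to Affymetrix arrays (Mouse Gene 2.0 ST) and read as log2 expression, a scale on which a difference of 1 is a doubling. The study describes PdgfraH2BeGFP reporter mice, in which fibroblasts carry a green nuclear protein, and a sort of the fluorescent cells by antibodies to CD26, Sca1 and Dlk1. The CD26+ population (papillary fibroblasts of the upper dermis, which the study gated as CD26+ and Sca1- while the labels give only CD26+), the Dlk1-Sca1+ population and the Dlk1+Sca1+ population (both pre-adipocyte) and the Dlk1+Sca1- population (reticular fibroblasts of the deeper dermis) had 3 arrays each, 12 in all. The labels call the arrays of a population biological replicates and the study speaks of different mice. Nothing in the sources says whether CD26 was used to gate the other 3 populations, and Ly6a, the gene of Sca1, had no probe set of its own here.

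The study set aside 1 Dlk1-Sca1+ sample without giving its number. The array that met its description was replicate 3, with Dlk1 at 8.69 against 8.09 and 8.32 in the other arrays of its population, so Dlk1-Sca1+ had 2 arrays in the tests and results are also given with all 12. Dlk1+Sca1- replicate 3 stood apart from replicates 1 and 2 in most of the ectoenzyme genes, and the values without it are given where they change a call. The mean of 8 fibroblast markers was between 11.13 and 11.20 on the Dlk1+Sca1- arrays and between 11.22 and 11.46 on the others. Against Dlk1+Sca1- cells, 2 of the 8 were called higher in CD26+, 2 in Dlk1-Sca1+ and 1 in Dlk1+Sca1+ cells. Of all genes, 0.654%, 0.343% and 0.649% were called higher there, in that order. The part of the marker differences in the ectoenzyme values was not tested. In bulk RNA, fewer cells of a type and less RNA per cell cannot be told apart.

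The 250 bases before the annotated starts of the 3 genes with their highest mean in CD26+ cells are given here. For Dpp4 that rank is the direction the gate sets. For Entpd1 and Nt5e the excess over Dlk1-Sca1+ cells was not called, so the rank only serves to choose the genes. The windows are RefSeq sequences of build GRCm38.p6 (mm10), 5′ to 3′ on the strand of the gene, and Entpd1 has 2 annotated starts. The Dpp4 start used here lies inside the gene limits given further below, so that its window overlaps them. Capitals mark each E-box, the letters CANNTG, a motif bound by basic helix-loop-helix transcription factors.
Entpd1, upstream start, chr19:40612116-40612365, plus strand: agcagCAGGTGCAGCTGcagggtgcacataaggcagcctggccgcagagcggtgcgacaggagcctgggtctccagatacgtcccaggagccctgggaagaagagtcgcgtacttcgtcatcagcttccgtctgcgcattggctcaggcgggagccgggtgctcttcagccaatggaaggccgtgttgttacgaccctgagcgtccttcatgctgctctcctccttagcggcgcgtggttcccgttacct
Entpd1, downstream start, chr19:40659520-40659769, plus strand: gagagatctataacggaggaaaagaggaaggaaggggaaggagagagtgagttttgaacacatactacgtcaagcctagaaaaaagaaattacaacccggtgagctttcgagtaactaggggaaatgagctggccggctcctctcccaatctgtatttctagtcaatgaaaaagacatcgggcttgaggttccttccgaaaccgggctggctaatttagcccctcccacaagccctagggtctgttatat
Nt5e, chr9:88327359-88327608, plus strand: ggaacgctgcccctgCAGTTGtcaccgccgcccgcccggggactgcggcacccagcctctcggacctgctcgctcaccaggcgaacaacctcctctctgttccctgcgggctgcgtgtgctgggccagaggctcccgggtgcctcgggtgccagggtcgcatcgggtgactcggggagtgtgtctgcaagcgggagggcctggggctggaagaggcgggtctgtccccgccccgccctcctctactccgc
Dpp4, chr2:62412232-62412481, minus strand: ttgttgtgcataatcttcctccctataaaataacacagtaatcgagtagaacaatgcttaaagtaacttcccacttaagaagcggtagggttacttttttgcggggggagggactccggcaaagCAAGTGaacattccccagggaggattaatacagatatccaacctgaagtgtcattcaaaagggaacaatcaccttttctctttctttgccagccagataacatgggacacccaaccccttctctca
The upstream Entpd1 window held 2 E-boxes, side by side and without overlap, and the downstream one held none. Nt5e and Dpp4 held 1 each. An E-box was present in 66.2% of 32841 mouse windows of this length, so its presence does not set these genes apart. Neither CTTTGA, the core bound by TCF and LEF factors (13.8% of windows, both strands), nor GGGCGG, the GC box (32.7%, both strands), was found in the Entpd1 and Dpp4 windows. Nt5e held 4 GC boxes, counted with overlaps on both strands, and no CTTTGA. The GC content was 62.4% and 47.2% for the 2 Entpd1 starts, 72% for Nt5e and 43.6% for Dpp4, against a median of 52.4% over all windows. Promoter entries were found for 6 of the 8 genes, and Fap and Enpp2 are named only.

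Entpd1 (chromosome 19, 40612366 to 40741602) encodes CD39, which carries out the first step of the path to adenosine. CD39 is a papillary marker in the study, which also measured it by quantitative PCR in the sorted cells, so Entpd1 was not picked without knowledge of its level in CD26+ cells. Log2 expression of Entpd1 was 8.57, 8.38 and 8.38 on the CD26+ arrays, 8.04 and 8.19 on the Dlk1-Sca1+ arrays with 6.45 on the array left out, 5.78, 5.80 and 5.69 on the Dlk1+Sca1+ arrays, and 7.37, 7.19 and 6.44 on the Dlk1+Sca1- arrays. The 4 populations did not overlap on the 11 arrays. The array left out lay at the level of Dlk1+Sca1- replicate 3, so with it Dlk1-Sca1+ and Dlk1+Sca1- arrays overlapped. Here and below, a lack of overlap only describes the arrays, since the share of all genes with such a separation was not counted.

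CD26+ cells held 6.43-fold more Entpd1 RNA than Dlk1+Sca1+ cells (log2 difference 2.69 ± 0.21, SE, limma adjusted p = 1.54e-05) and 2.72-fold more than Dlk1+Sca1- cells (1.44 ± 0.21, adjusted p = 0.00528). The adjusted p is the Benjamini-Hochberg value over all 22180 genes, and a gene was called at 0.05. Both differences were called whichever single array was dropped. With all 12 arrays in the fit the difference from Dlk1+Sca1- cells was no longer called (adjusted p = 0.117).

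The low end of the range lay in Dlk1+Sca1+ cells. Dlk1-Sca1+ cells held 5.14-fold more Entpd1 than Dlk1+Sca1+ cells (log2 difference 2.36 ± 0.24, limma adjusted p = 0.000299), although with replicate 3 included the difference was 1.80 and was not called (adjusted p = 0.0627). Dlk1+Sca1+ cells were also lower than Dlk1+Sca1- cells (-1.24 ± 0.21, adjusted p = 0.011). This last call ended with all 12 arrays (adjusted p = 0.161), when Dlk1+Sca1+ replicate 3 was dropped (0.0502) and when Dlk1+Sca1- replicate 1 was (0.0621). The gap of 1.12 ± 0.24 between Dlk1-Sca1+ and Dlk1+Sca1- cells was just outside the threshold (adjusted p = 0.0571), with a 95% interval from 0.61 to 1.63. Between CD26+ and Dlk1-Sca1+ cells the difference was 0.33 ± 0.24 (95% interval -0.18 to 0.83, adjusted p = 0.984).

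Nt5e (chromosome 9, 88327609 to 88372089) encodes CD73, the enzyme that makes adenosine from AMP. Its log2 expression was 10.55, 9.91 and 9.98 in CD26+ cells, 9.41 and 9.47 in Dlk1-Sca1+ cells with 8.88 on the array left out, 9.22, 9.24 and 8.81 in Dlk1+Sca1+ cells, and 8.86, 9.08 and 9.35 in Dlk1+Sca1- cells. All CD26+ arrays lay above every array of the other populations, and CD26+ replicate 1 was well above the other CD26+ arrays. The Dlk1+Sca1+ and Dlk1+Sca1- arrays overlapped.

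CD26+ cells exceeded Dlk1+Sca1+ cells in Nt5e by 1.05 ± 0.19 (SE, limma adjusted p = 0.00593), and they exceeded Dlk1+Sca1- cells by 1.05 ± 0.19 (adjusted p = 0.0172). The second call ended without CD26+ replicate 1 (0.85, adjusted p = 0.087), without Dlk1+Sca1- replicate 1 (0.93, adjusted p = 0.074) and when only these populations were fitted (adjusted p = 0.0626). Its excess of 0.71 ± 0.21 over Dlk1-Sca1+ cells was not called (95% interval 0.26 to 1.16, adjusted p = 0.63). Among the other 3 populations the differences were small, at 0.34 and 0.35 for Dlk1-Sca1+ over Dlk1+Sca1- and over Dlk1+Sca1+ cells, and -0.01 ± 0.19 for Dlk1+Sca1+ minus Dlk1+Sca1- (95% interval -0.41 to 0.40). Entpd1 and Nt5e both had their highest mean in CD26+ cells.

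**Figure D1:**
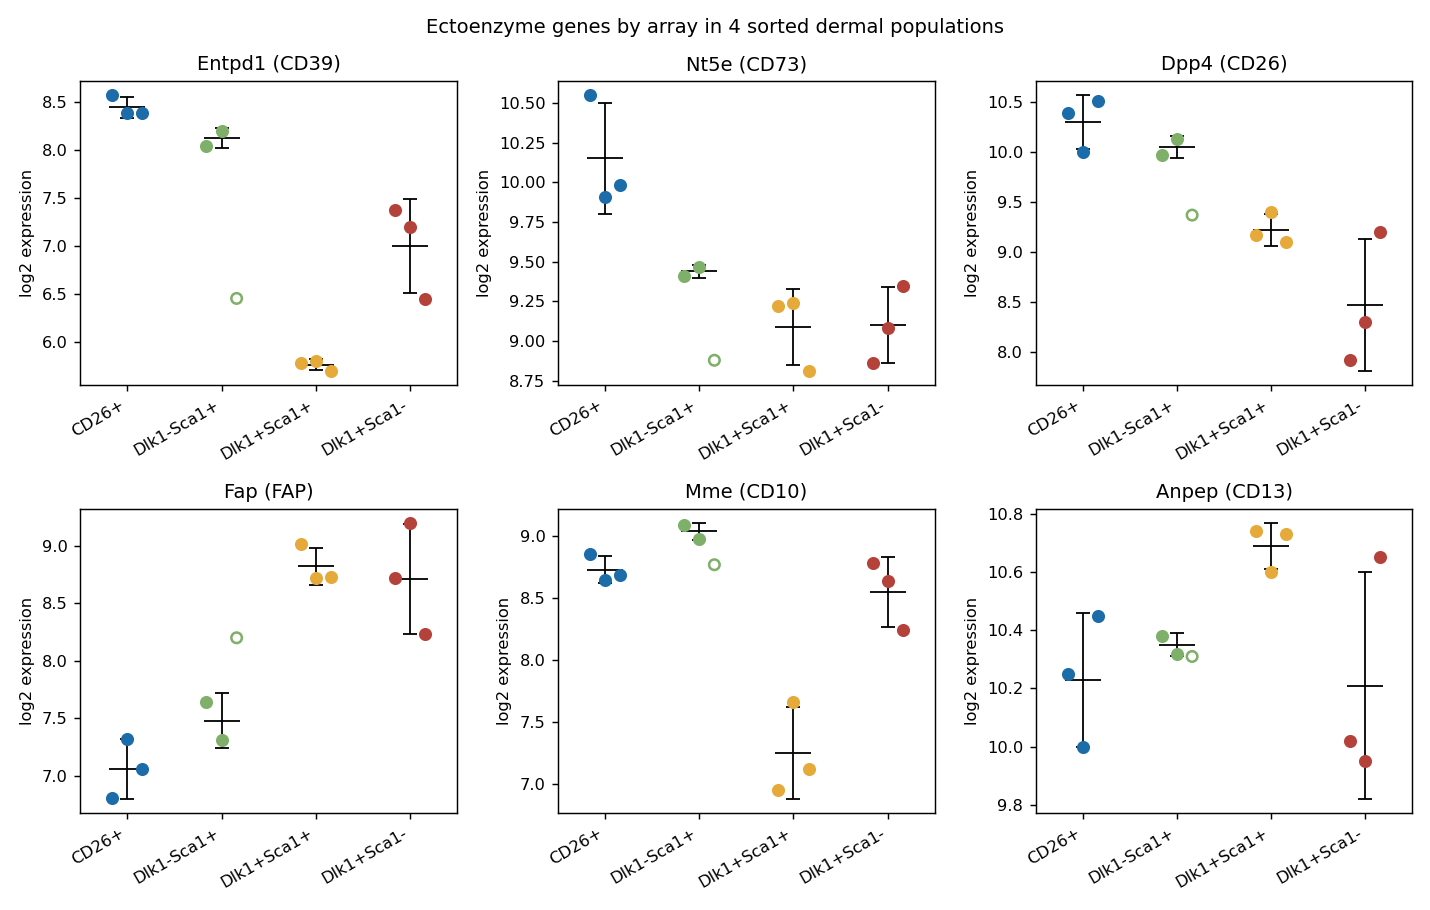
Log2 expression (y axes, each with its own scale) of the 6 measured ectoenzyme genes on each array in the 4 sorted populations (x axes). Filled points are arrays, open circles the Dlk1-Sca1+ array left out, and bars the mean ± SD of the filled points. Entpd1 runs from 5.69 to 8.57, Fap is lowest in CD26+ cells, at 6.81 to 7.32, and Mme is lowest in Dlk1+Sca1+ cells, at 6.95 to 7.66.

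Dpp4 (chromosome 2, 62330073 to 62412315) encodes CD26, the peptidase by which the CD26+ population was sorted, so its values there check the gate and carry no test. Its log2 expression was 10.39, 10.00 and 10.51 in CD26+ cells, 9.97 and 10.13 in Dlk1-Sca1+ cells with 9.37 on the array left out, 9.17, 9.40 and 9.10 in Dlk1+Sca1+ cells, and 7.92, 8.30 and 9.20 in Dlk1+Sca1- cells. CD26+ cells had the highest mean, the direction the gate sets, yet Dlk1-Sca1+ replicate 2 lay above CD26+ replicate 2. The CD26+ mean was 1.83 above Dlk1+Sca1-, 1.08 above Dlk1+Sca1+ and 0.25 above Dlk1-Sca1+ cells on the log2 scale.

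Among the 3 populations not named for CD26, Dlk1-Sca1+ cells exceeded Dlk1+Sca1- cells in Dpp4 by 1.58 ± 0.29 (SE, limma adjusted p = 0.0355). The call held in only 2 of the 11 fits that each dropped an array (without CD26+ replicate 2 and without Dlk1+Sca1- replicate 3, adjusted p over the 11 fits 0.000684 to 0.24), and with all 12 arrays the difference was 1.35 (adjusted p = 0.0619). The differences of 0.83 ± 0.29 for Dlk1-Sca1+ minus Dlk1+Sca1+ (adjusted p = 0.265) and 0.75 ± 0.26 for Dlk1+Sca1+ minus Dlk1+Sca1- (adjusted p = 0.249) were not called. Without Dlk1+Sca1- replicate 3, whose Dpp4 was 9.20, both were called, at 0.83 (adjusted p = 0.0344) and 1.11 (adjusted p = 0.00589).

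Fap (chromosome 2, 62500936 to 62575509) encodes fibroblast activation protein, the closest relative of CD26 and a marker of activated fibroblasts in wounds and tumours. Its log2 expression was 6.81, 7.32 and 7.06 in CD26+ cells, 7.64 and 7.31 in Dlk1-Sca1+ cells with 8.20 on the array left out, 9.01, 8.72 and 8.73 in Dlk1+Sca1+ cells, and 8.72, 9.20 and 8.23 in Dlk1+Sca1- cells. CD26+ and Dlk1-Sca1+ arrays overlapped at the low end, Dlk1+Sca1+ and Dlk1+Sca1- arrays overlapped at the high end, and these pairs did not overlap each other on the 11 arrays.

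CD26+ cells held 3.14-fold less Fap than Dlk1+Sca1- cells (log2 difference -1.65 ± 0.22, SE, limma adjusted p = 0.00358) and 3.38-fold less than Dlk1+Sca1+ cells (-1.76 ± 0.22, adjusted p = 0.000598). Both calls held in all 11 fits that each dropped an array and with all 12 arrays. In Dlk1-Sca1+ cells Fap was also lower, against Dlk1+Sca1+ cells (-1.34 ± 0.25, adjusted p = 0.0215) and against Dlk1+Sca1- cells (-1.24 ± 0.25, adjusted p = 0.0474). With all 12 arrays these differences were -1.10 (adjusted p = 0.0899) and -1 (adjusted p = 0.124). The call against Dlk1+Sca1+ cells ended when either Dlk1-Sca1+ array or any Dlk1+Sca1+ array was dropped (adjusted p over the 11 fits 0.00569 to 0.209), and the call against Dlk1+Sca1- cells held only in the fit without Dlk1+Sca1- replicate 3 (0.00859 to 0.338). The 95% interval for Dlk1+Sca1+ minus Dlk1+Sca1- was -0.38 to 0.59, and for CD26+ minus Dlk1-Sca1+ it was -0.95 to 0.13.

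Dpp4 and Fap lie 88.6 kb apart on chromosome 2, with 2 annotated genes between them. Of the comparisons without the CD26+ population, Dlk1-Sca1+ minus Dlk1+Sca1- was 1.58 for Dpp4 and -1.24 for Fap. Dlk1-Sca1+ minus Dlk1+Sca1+ was 0.83 for Dpp4, not called, and -1.34 for Fap. Whether CD26 was also used to gate these populations is not known. In Dlk1+Sca1+ minus Dlk1+Sca1- both differences were positive, at 0.75 for Dpp4 and 0.11 for Fap, and neither was called. Within Dlk1+Sca1-, replicate 3 had the highest Dpp4 and the lowest Fap of the population. The 5 measured genes around them, picked for their position, were Slc4a10, Gcg, Ifih1, Gca and Kcnh7. None was called in CD26+ against Dlk1+Sca1- or Dlk1+Sca1+ cells, where 1.1% and 3.72% of all genes were. Their means in these populations were low, from 2.86 for Gca in CD26+ cells to 6.12 for Gcg in Dlk1+Sca1- cells. The array medians were 5.38 to 5.51, so the missing calls say little about these genes. CD26+ minus Dlk1+Sca1+ was 0.57 for Gcg (limma adjusted p = 0.395) and between -0.23 for Gca (adjusted p = 0.772) and 0.18 for Slc4a10 (adjusted p = 0.671) for the other genes.

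**Figure D2:**
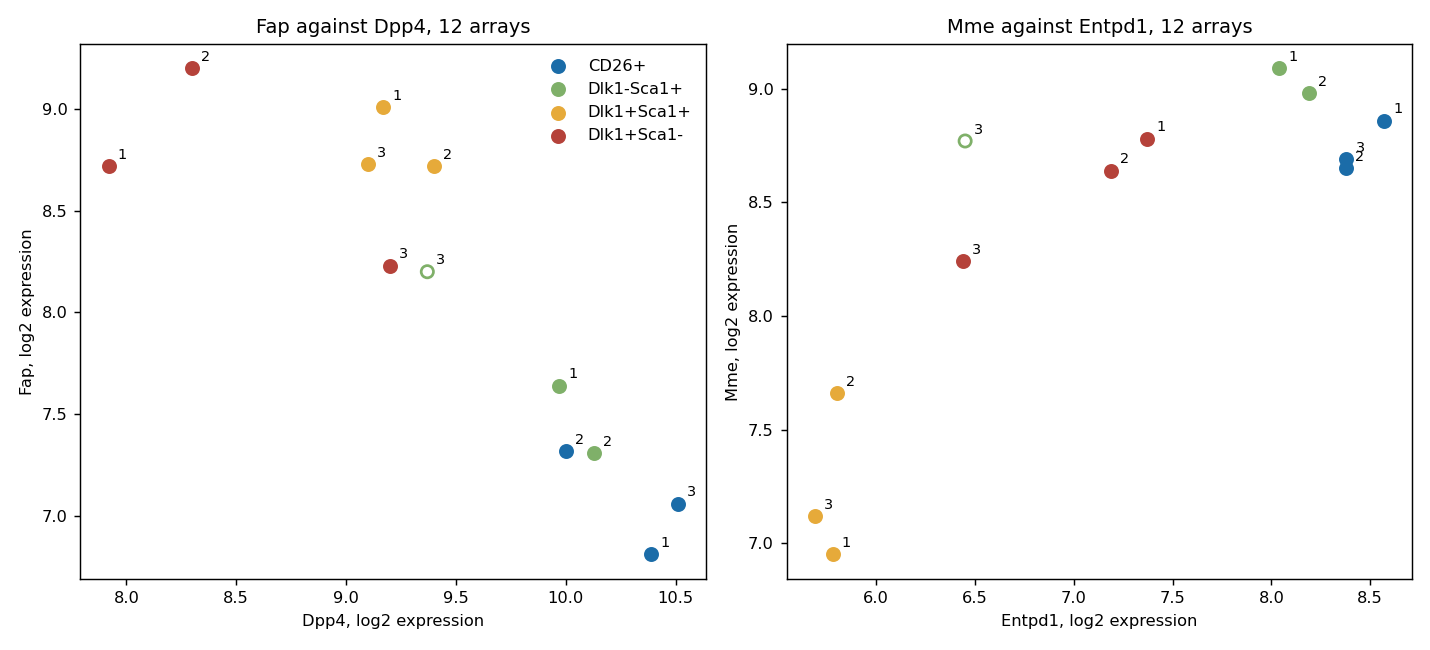
Left, log2 expression of Fap (y axis) against Dpp4 (x axis), and right, Mme (y axis) against Entpd1 (x axis), on the 12 arrays, coloured by population and numbered by replicate, with the Dlk1-Sca1+ array left out as an open circle. The CD26+ arrays, sorted by the product of Dpp4, and the filled Dlk1-Sca1+ arrays had Dpp4 of 9.97 or more and Fap of at most 7.64. The 3 Dlk1+Sca1+ arrays are low in both Entpd1 (5.69 to 5.80) and Mme (6.95 to 7.66).

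Mme (chromosome 3, 63295211 to 63383713) encodes CD10, which degrades substance P and other small peptides. Its log2 expression was 8.86, 8.65 and 8.69 in CD26+ cells, 9.09 and 8.98 in Dlk1-Sca1+ cells with 8.77 on the array left out, 6.95, 7.66 and 7.12 in Dlk1+Sca1+ cells, and 8.78, 8.64 and 8.24 in Dlk1+Sca1- cells. The Dlk1+Sca1+ arrays were the low ones and overlapped no other population, and the other 3 populations lay close together.

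Dlk1+Sca1+ cells held 2.47-fold less Mme than Dlk1+Sca1- cells (log2 difference -1.31 ± 0.19, SE, limma adjusted p = 0.00492). CD26+ cells held 2.80-fold more than Dlk1+Sca1+ cells (1.49 ± 0.19, adjusted p = 0.000653) and Dlk1-Sca1+ cells 3.46-fold more (1.79 ± 0.22, adjusted p = 0.0013). All 3 calls held in each of the 11 fits that dropped an array and with all 12 arrays. The differences among the remaining populations were not called. They were 0.18 for CD26+ minus Dlk1+Sca1- (95% interval -0.24 to 0.59), -0.30 for CD26+ minus Dlk1-Sca1+ (-0.77 to 0.16) and 0.48 for Dlk1-Sca1+ minus Dlk1+Sca1- (0.02 to 0.95).

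Anpep (chromosome 7, 79821803 to 79848210) encodes CD13, which removes single amino acids from the front end of peptides. Its log2 expression was 10.25, 10.00 and 10.45 in CD26+ cells, 10.38 and 10.32 in Dlk1-Sca1+ cells with 10.31 on the array left out, 10.74, 10.60 and 10.73 in Dlk1+Sca1+ cells, and 10.02, 9.95 and 10.65 in Dlk1+Sca1- cells. All populations except Dlk1+Sca1+ overlapped with one another, and Dlk1+Sca1- replicate 3 fell within the Dlk1+Sca1+ range.

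The Anpep means spanned 0.48 on the log2 scale, 1.4-fold, and no difference was called. Dlk1+Sca1+ minus Dlk1+Sca1- was 0.48 ± 0.17 (SE, 95% interval 0.12 to 0.85, limma adjusted p = 0.256) and CD26+ minus Dlk1+Sca1+ was -0.46 ± 0.17 (-0.82 to -0.09, adjusted p = 0.206). Without Dlk1+Sca1- replicate 3 they were called, at 0.70 (adjusted p = 0.0159) and -0.46 (adjusted p = 0.0446). The other 4 differences were between -0.34 and 0.14.

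Counted by comparison, 3 of the 5 tested genes were called in CD26+ against Dlk1+Sca1- cells (Entpd1 and Nt5e higher, Fap lower), where 1.1% of all 22180 genes were (0.654% higher, 0.442% lower). In CD26+ against Dlk1+Sca1+ cells 4 of 5 were called (Entpd1, Nt5e and Mme higher, Fap lower), against 3.72% of all genes (2.05% higher, 1.68% lower). In CD26+ against Dlk1-Sca1+ cells limma called 0 of 5, against 0.0857% of all genes (0.00902% higher, 0.0766% lower). There 1 of 5, Nt5e, had an unadjusted limma p under 0.05, a threshold for which the share of all genes was not counted. The methods' t-test gave 2 of 5 with an unadjusted p under 0.05, against 5.91% of all genes, and 0 after adjustment.

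Of the comparisons among the other populations, Dlk1-Sca1+ against Dlk1+Sca1- had 1 of 5 called (Fap lower), against 0.591% of all genes (0.343% higher, 0.248% lower). Dlk1-Sca1+ against Dlk1+Sca1+ had 3 of 5 (Entpd1 and Mme higher, Fap lower), against 1.19% (0.649% higher, 0.537% lower). Dlk1+Sca1+ against Dlk1+Sca1- had 2 of 5 (Entpd1 and Mme lower), against 1.24% (0.649% higher, 0.586% lower). Comparisons that share a population share its arrays, so these counts are not independent of each other. Over the 4 populations together, the F test of limma called 4 of 5 genes, against 3.23% of all genes, with adjusted p of 6.43e-05 for Entpd1, 0.000884 for Mme, 0.00108 for Fap and 0.0134 for Nt5e, while Anpep was at 0.329.

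**Figure D3:**
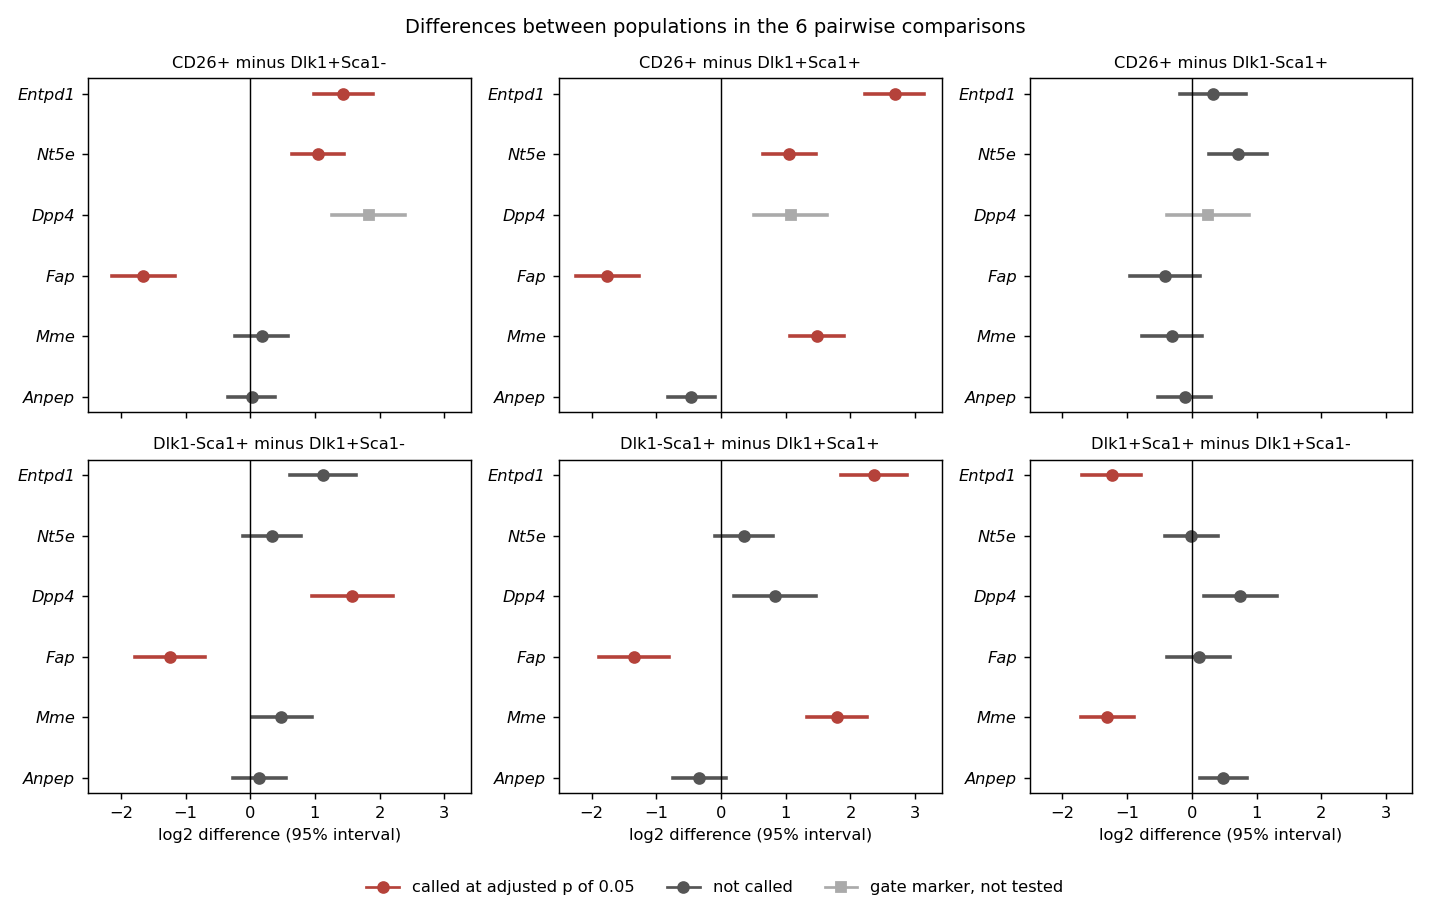
Log2 difference (x axes) with its 95% interval for each of the 6 measured genes in the 6 comparisons, each named as first minus second population. Red marks a call at an adjusted p of 0.05, dark grey no call, and light grey squares Dpp4 in comparisons with the CD26+ population, which were not tested. Entpd1 reaches 2.69 and Fap -1.76 in CD26+ minus Dlk1+Sca1+, and no gene is called in CD26+ minus Dlk1-Sca1+.

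Other cells of the dermis also make some of these enzymes, CD39 on vessels and leukocytes and CD13 on macrophages. The mean of 10 endothelial markers on an array was between 4.95 and 5.13 in CD26+, 5.03 and 5.29 in Dlk1-Sca1+, 5.10 and 5.35 in Dlk1+Sca1+ and 5.14 and 5.28 in Dlk1+Sca1- cells. Of the 10, none was called in CD26+ against Dlk1+Sca1- cells, where 1.1% of all genes were. In CD26+ against Dlk1+Sca1+ cells 1 was lower (1.68% of all genes), and in Dlk1+Sca1+ against Dlk1+Sca1- cells 1 was higher (0.649%). The part of these markers in the Entpd1 values was not tested. The mean of the 11 measured of 12 leukocyte markers was between 4.71 and 4.86 in CD26+, 4.78 and 5 in Dlk1-Sca1+, 5.39 and 5.59 in Dlk1+Sca1+ and 4.76 and 4.92 in Dlk1+Sca1- cells. It was thus highest in the population with the highest Anpep mean and the lowest Entpd1 mean. Of the 11, 3 were called higher there than in Dlk1+Sca1- cells, 3 higher than in CD26+ and 2 higher than in Dlk1-Sca1+ cells. The shares of all genes called in that direction were 0.649%, 1.68% and 0.537%. The part of these markers in the Anpep values was not tested. Array values have a background and no true zero, so no marker can be called absent. The mean of 6 adipocyte markers was between 4.82 and 5.43 in CD26+, 7.27 and 8.27 in Dlk1-Sca1+ and 6.90 and 7.22 in Dlk1+Sca1+ cells, and in Dlk1+Sca1- cells it was 6.73 in replicate 3 against 5.58 and 5.91 in replicates 1 and 2. In CD26+ cells 4 of the 6 were called lower than in Dlk1+Sca1+ cells, 3 lower than in Dlk1-Sca1+ cells and 1 lower than in Dlk1+Sca1- cells. Of all genes, 1.68%, 0.0766% and 0.442% were called lower there, in that order. Dlk1-Sca1+ and Dlk1+Sca1+ cells each had 1 called higher than in Dlk1+Sca1- cells, against 0.343% and 0.649% of all genes. The part of these markers in the ectoenzyme values was not tested.

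The enzymes work within wider systems, and 3 lists of related genes were examined. Of 28 genes of purine and pyrophosphate handling at the cell surface, 21 were measured. In CD26+ against Dlk1+Sca1- cells 2 were higher (Entpd1 and Nt5e) and 1 lower, against 1.1% of all genes called, with a median difference of 0.13 against -0.01 over all genes. In CD26+ against Dlk1+Sca1+ cells 3 were higher and 0 lower, against 3.72% of all genes called, with a median of 0.08 against -0.01. In Dlk1+Sca1+ against Dlk1+Sca1- cells 1 was higher and 2 were lower, against 1.24% of all genes called, with a median of 0.08 against 0 over all genes. CD26+ against Dlk1-Sca1+ cells had no called gene, against 0.0857% of all genes. Dlk1-Sca1+ cells had 1 against Dlk1+Sca1- and 1 against Dlk1+Sca1+ cells, where 0.591% and 1.19% of all genes were called. At such shares a missing call in a list of this size says little. The genes called beyond the ectoenzymes themselves were Alpl, Enpp3 and P2ry1, and no other measured gene of adenosine breakdown, transport or reception on the list was called. Of the adenosine receptors on the list only Adora3 was measured, at 4.14 to 4.74, below the array medians of 5.38 to 5.51. Adora1, Adora2a and Adora2b were not measured, so adenosine reception was hardly examined.

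Alpl encodes tissue-nonspecific alkaline phosphatase, which removes phosphate from pyrophosphate and from nucleotides. Its log2 expression was 6.60, 6.61 and 6.40 in CD26+ cells, 6.18 and 5.95 in Dlk1-Sca1+ cells with 6.12 on the array left out, 5.79, 6.28 and 5.70 in Dlk1+Sca1+ cells, and 8.10, 8.25 and 7.29 in Dlk1+Sca1- cells. The Dlk1+Sca1- arrays were above all others. Alpl was lower than in Dlk1+Sca1- cells by all 3 tests, at -1.34 ± 0.24 for CD26+ (SE, limma adjusted p = 0.0184), -1.81 ± 0.27 for Dlk1-Sca1+ (adjusted p = 0.0114) and -1.96 ± 0.24 for Dlk1+Sca1+ cells (adjusted p = 0.00166). The last call held in all 11 fits that each dropped an array. The call for CD26+ ended without any 1 of the CD26+ arrays and without Dlk1+Sca1- replicate 1 or 2 (adjusted p up to 0.0837), and that for Dlk1-Sca1+ ended without either of its own arrays (up to 0.133).

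P2ry1, a receptor for extracellular ADP, was 6.19, 6.02 and 6.12 in CD26+ cells and 4.62, 5.41 and 5.36 in Dlk1+Sca1+ cells. The groups did not overlap, and P2ry1 was higher in CD26+ cells by 0.98 ± 0.24 (SE, limma adjusted p = 0.0384). The call ended without any 1 of the CD26+ arrays and without Dlk1+Sca1+ replicate 1 or 3 (adjusted p up to 0.14). Enpp3, which hydrolyses nucleotides as Enpp1 does, was 7.76, 7.63 and 8.18 in Dlk1+Sca1+ cells and 6.63, 7.28 and 6.13 in Dlk1+Sca1- cells. It was higher in Dlk1+Sca1+ cells by 1.18 ± 0.26 (adjusted p = 0.0473), a call that held in only 1 of the 11 fits that each dropped an array, without Dlk1+Sca1- replicate 2 (adjusted p over the 11 fits 0.00957 to 0.171).

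Autotaxin makes lysophosphatidic acid, a lipid signal with its own receptors. Of 12 genes of its synthesis, reception and breakdown 9 were measured. Only Lpar4, a receptor, was called, in CD26+ against Dlk1+Sca1+ cells, where 3.72% of all genes were called. The median of the 9 there was -0.28 against -0.01 over all genes. The comparisons without a call had 0.0857% to 1.24% of all genes called, so their missing calls say little. Lpar4 was 7.63, 7.51 and 8.29 in CD26+ cells and 8.78, 8.83 and 8.95 in Dlk1+Sca1+ cells. The groups did not overlap, with CD26+ replicate 3 the nearest to the other group, and Lpar4 was lower in CD26+ cells by -1.04 ± 0.20 (SE, limma adjusted p = 0.00894). The call ended without CD26+ replicate 1 (adjusted p = 0.0557) and held in the other 10 such fits.

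Of 23 cell surface peptidases and their relatives 21 were measured, 17 of them outside the ectoenzymes followed here. In CD26+ against Dlk1+Sca1+ cells 1 of 20 tested was higher (Mme) and 3 were lower (Fap, Lvrn and Ace), against 3.72% of all genes called, with a median of -0.11 against -0.01 over all genes. In Dlk1-Sca1+ against Dlk1+Sca1+ cells 1 of 21 was higher and 2 were lower, against 1.19% of all genes called, with a median of -0.07. The other 4 comparisons called no peptidase outside the ectoenzymes. They had 0.0857% to 1.24% of all genes called, so the missing calls among 17 genes say little.

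Lvrn, a membrane aminopeptidase of the same family as CD13, was 6.60, 7.05 and 6.79 in CD26+ cells and 7.82, 7.80 and 7.87 in Dlk1+Sca1+ cells. It was lower in CD26+ cells by -1.02 ± 0.24 (SE, limma adjusted p = 0.0343). This call ended with all 12 arrays (adjusted p = 0.0712) and without any 1 of the CD26+ or Dlk1+Sca1+ arrays (up to 0.153). Ace, the angiotensin-converting enzyme, was 5.68, 6.14 and 5.72 in CD26+ cells, 5.40 and 5.90 in Dlk1-Sca1+ cells with 5.94 on the array left out, 6.49, 6.85 and 6.57 in Dlk1+Sca1+ cells, and 6.61, 6.63 and 6.72 in Dlk1+Sca1- cells. The CD26+ and Dlk1-Sca1+ arrays were the low ones, as for Fap. Ace was lower than in Dlk1+Sca1+ cells by -0.79 ± 0.19 in CD26+ cells (adjusted p = 0.0367) and by -0.98 ± 0.21 in Dlk1-Sca1+ cells (adjusted p = 0.0437). The call for CD26+ ended when CD26+ replicate 1 or 3, any Dlk1+Sca1+ array or Dlk1+Sca1- replicate 1 was dropped (adjusted p up to 0.162). The call for Dlk1-Sca1+ ended with all 12 arrays (adjusted p = 0.0717) and held in only 2 of the 11 fits that each dropped an array, those without CD26+ replicate 2 and without Dlk1+Sca1- replicate 3 (adjusted p over the 11 fits 0.0414 to 0.322).

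**Figure D4:**
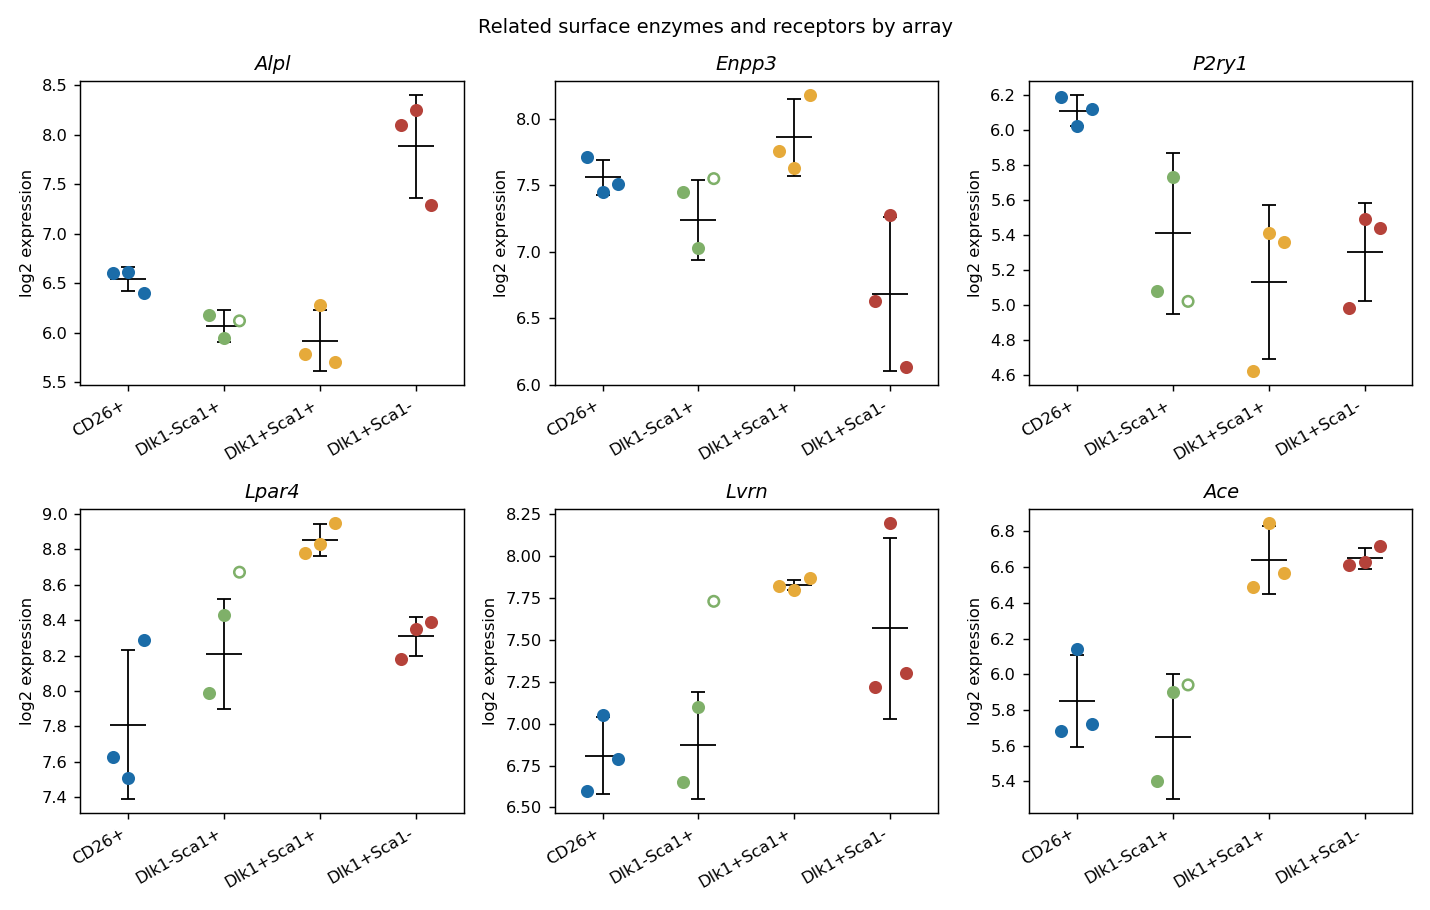
Log2 expression (y axes, each with its own scale) of the 6 called genes related to the ectoenzymes, on each array in the 4 populations (x axes). Filled points are arrays, open circles the Dlk1-Sca1+ array left out, and bars the mean ± SD of the filled points. Alpl is highest in Dlk1+Sca1- cells, at 7.29 to 8.25, and Ace is at 6.49 or above on the 6 arrays of the populations sorted as Dlk1+ and at 6.14 or below on the others.

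The genes whose array values ran most like those of each ectoenzyme were sought among 697 genes (698 for Anpep) whose population means differed by at least 1 on the log2 scale. The measure was Pearson's r over the 12 arrays, given as a description, since the arrays share 4 populations. For Entpd1 they were Tcf4, a basic helix-loop-helix transcription factor (r = 0.98), Col7a1, the collagen of anchoring fibrils under the epidermis (0.97), and Robo2, a receptor of axon guidance (0.96). Mean Tcf4 was 10.77 ± 0.20 in CD26+, 10.59 ± 0.06 in Dlk1-Sca1+, 9.50 ± 0.12 in Dlk1+Sca1+ and 10.05 ± 0.24 in Dlk1+Sca1- cells (SD, n = 3, 2, 3 and 3), the order of Entpd1. Col7a1 had that order too, at 8.68 ± 0.01, 8.31 ± 0.19, 7.09 ± 0.27 and 7.75 ± 0.07.

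For Nt5e they were Otulin, a deubiquitinase (0.91), Tac1, the precursor of substance P (0.91), and Fras1, a basement membrane protein of the dermal border (0.90). Mean Fras1 was 8.27 ± 0.44 in CD26+ and 6.47 ± 0.26 in Dlk1+Sca1- cells (SD, n = 3 each). For Dpp4 they were Plekhg1 (0.95), Htra1, a secreted serine protease (0.95), and Slc27a6, a fatty acid transporter (0.92). Mean Htra1 was 9.73 ± 0.16 in CD26+, 9.80 ± 0.02 in Dlk1-Sca1+, 9.16 ± 0.15 in Dlk1+Sca1+ and 8.60 ± 0.35 in Dlk1+Sca1- cells, so that, as for Dpp4, the CD26+ and Dlk1-Sca1+ levels lay close together.

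For Fap they were Col6a6, a collagen VI chain (0.97), Epha3, an ephrin receptor (0.96), and Nrk, a kinase (0.94). Mean Epha3 was 6.04 ± 0.23 in CD26+, 6.54 ± 0.15 in Dlk1-Sca1+, 8.24 ± 0.09 in Dlk1+Sca1+ and 7.85 ± 0.46 in Dlk1+Sca1- cells. For Mme they were Fry (0.95), Cnn2, an actin-binding calponin (0.92), and Aqp1, a water channel (0.91), with Cnn2 at 6.65 ± 0.22 in Dlk1+Sca1+ cells, against 7.91 ± 0.46 for Dlk1+Sca1-. For Anpep they were Ctsh, a lysosomal peptidase (0.94), Mmp27, a matrix metalloprotease (0.94), and Ptgfr, the receptor of prostaglandin F (0.90). Ctsh averaged 8.73 ± 0.12 in Dlk1+Sca1+ cells, against 7.66 ± 0.51 for Dlk1+Sca1-.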

How the data were processed

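Fibroblasts of 4 sorted populations were measured on 12 arrays. The authors deposited a log2 expression value for each probe set on each array. Summarisation and normalisation methods are not given in the study or the labels, while the submitters' processing notes name build mm10. The values lay between 1.41 and 14.05 with array medians of 5.38 to 5.51, and no further normalisation was applied. Of 41345 probe sets, 23521 had 1 gene symbol, 1820 several and 16004 none here. The probe set with the highest mean was kept per gene.

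The 6 pairs of populations were compared in limma (3.58.1, with R 4.3.3 and statmod 1.5.0): 1 mean per population, eBayes with trend and robust fitting, two-sided, Benjamini-Hochberg over 22180 genes, 11 arrays and 7 residual degrees of freedom. Dim genes lie near background, where log2 differences understate changes in RNA, and the number of arrays limits the precision. The array left out had both the highest Dlk1 of its population and a higher mean r with Dlk1+Sca1+ arrays (0.06) than with its own (-0.07). The test was checked on simulated data.

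The ectoenzymes and lists were chosen with earlier results of these data known. All ectoenzymes were named, with the called genes of each list (at most 6) and the 3 genes with the highest r. Predicted genes, small RNAs, antigen receptor segments and receptors of the olfactory and vomeronasal families were passed over. Markers of pericytes, keratinocytes, skeletal muscle, Schwann cells with melanocytes and mast cells were also examined. Of these lists only that of pericytes and smooth muscle had called genes, at most 1 of 8 in a comparison. The comparisons with such a call had 1.19% to 3.72% of all genes called. The mean of the 7 measured of 8 keratinocyte markers was 5.12, 6.01 and 6.05 on CD26+ replicates 1, 2 and 3. On the arrays of the other populations it was between 5.13 and 5.67. The part of these markers in the ectoenzyme values was not tested. Alternatives were all 12 arrays, pairwise fits, no trend or robust fitting, quantile or median scaling, no dim genes, probe set means, a replicate block, each array left out and the methods' t-test. The study's methods name Student tests, or analysis of variance followed by a Bonferroni posttest, for experiments in general. They do not say which test was used for the arrays.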

Additional observations from a re-analysis of the deposited data

How the results depend on the processing

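The count of tested ectoenzymes called in Dlk1-Sca1+ against Dlk1+Sca1- cells was 1 and became 0 with all 12 arrays, with only those populations fitted, without trend or robust fitting and with the methods' t-test, and 2 without the dimmest 40% of genes. Against Dlk1+Sca1+, Dlk1-Sca1+ cells had 1 in place of 3 with all 12 arrays. Dlk1+Sca1+ against Dlk1+Sca1- cells had 1 in place of 2 with all 12 arrays and with only those populations fitted. The methods' t-test after adjustment left 1 in place of 4 in CD26+ against Dlk1+Sca1+ cells and 0 in the other 5 comparisons. Over all genes it called 0 to 5 a comparison after adjustment, against 1310 to 2893 with an unadjusted p under 0.05. The F test over populations kept its count of 4 in the 7 other settings in which it was computed. It was not computed in the pairwise fits or with the t-test, and it had 3 to 5 with each array left out in turn.

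Leaving out each array in turn, the counts for the tested ectoenzymes were 2 to 3 (CD26+ against Dlk1+Sca1-), 4 to 5 (CD26+ against Dlk1+Sca1+), 0 to 0 (CD26+ against Dlk1-Sca1+), 0 to 1 (Dlk1-Sca1+ against Dlk1+Sca1-), 2 to 3 (Dlk1-Sca1+ against Dlk1+Sca1+) and 1 to 3 (Dlk1+Sca1+ against Dlk1+Sca1-). Counts over all genes, in the same order, were 243 with a range of 61 to 265, 826 (426 to 967), 19 (8 to 25), 131 (20 to 175), 263 (83 to 351) and 274 (99 to 355). Under the other limma settings they ranged over 109 to 313, 689 to 964, 15 to 29, 26 to 168, 88 to 338 and 118 to 337. Quantile scaling lowered the share of calls that were higher in CD26+ against Dlk1+Sca1- cells to 47.2% in place of 59.7%, and in Dlk1-Sca1+ against Dlk1+Sca1- cells to 39% in place of 58%.

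Of 660 differences refitted for the 6 measured genes, 588 kept their direction and side of the threshold, 54 lost and 7 gained a call, and 11 changed sign, none of them called. With quantile scaling the last were Anpep at -0.09 (CD26+ minus Dlk1+Sca1-) and -0.01 (Dlk1-Sca1+ minus Dlk1+Sca1-) and Fap at -0.02 (Dlk1+Sca1+ minus Dlk1+Sca1-), and with median scaling Nt5e at 0.02 (Dlk1+Sca1+ minus Dlk1+Sca1-). With each array left out, Nt5e in Dlk1+Sca1+ minus Dlk1+Sca1- ranged from -0.12 to 0.13, Fap there from -0.14 to 0.35, and Anpep from -0.10 to 0.25 in CD26+ minus Dlk1+Sca1- and from -0.22 to 0 in CD26+ minus Dlk1-Sca1+. Entpd1 in Dlk1-Sca1+ minus Dlk1+Sca1- was called with median scaling (1.17, limma adjusted p = 0.043) and without the dimmest genes (adjusted p = 0.0374). With only the populations compared in the fit, calls also ended for Entpd1 (adjusted p = 0.0725) and Enpp3 (0.155) in Dlk1+Sca1+ minus Dlk1+Sca1-, for Dpp4 (0.2), Fap (0.229) and Alpl (0.114) in Dlk1-Sca1+ minus Dlk1+Sca1-, for Alpl in CD26+ minus Dlk1+Sca1- (0.0575) and for Ace in CD26+ minus Dlk1+Sca1+ (0.0563) and Dlk1-Sca1+ minus Dlk1+Sca1+ (0.127), while Dpp4 in Dlk1-Sca1+ minus Dlk1+Sca1+ gained one (0.83, adjusted p = 0.0381). In Dlk1-Sca1+ minus Dlk1+Sca1-, quantile scaling ended the Dpp4 call (0.0787), and median scaling (0.0575) or no trend and robust fitting (0.0677) the Fap call. Enpp3 lost its call without trend or robust fitting (0.0563) and with quantile scaling (0.0583). Of 360 refitted list counts 54 moved by over 1.5 times.

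Same-numbered replicates of different populations had deviations that correlated at -0.05 to 0.14 over 15 pairs, 2 of them over 0.1, and 8 of 11 arrays correlated best with one of their own number. Pairs of different numbers were at -0.14 to 0.09. The match of 8 arrays is a hint from the data, not the design, and since not every pair was over 0.1 the numbers were not taken to pair the samples. With the number as a block the counts of called ectoenzymes stayed at 3, 4, 0, 1, 3 and 2, and Enpp3 lost its call (adjusted p = 0.0628). A missing call does not show that populations were alike, and the causes of the changes above were not tested.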
